A study of Mus musculus with 2 samples.

Results

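The growth factors described here were 8 genes of the epidermal growth factor (EGF) and transforming growth factor beta (TGF-beta) families, selected by symbol: Ereg, Areg, Hbegf, Nrg1, Inhba, Tgfb1, Tgfb2 and Tgfb3. All 8 were among the 31253 genes of both count matrices. Their mRNA was followed across cells with little mRNA of Ptprc (CD45), neutrophils, macrophages, T cells and NK cells of tumours grown from MB49, a cell line of mouse bladder cancer. The library labelled Lcn2-ko came from chimeric mice, in which Lcn2-KO marrow of male donors had been transferred to females after lethal irradiation. The wt library came from females that had received WT marrow of male donors in the same way. Both libraries held live cells sorted for CD45 after digestion of the tumour at 37 °C for 45 min, and each label had 1 library. The effect of the digestion on these mRNAs was not tested. In such chimeras the tumour cells and the irradiated host's own non-blood cells keep Lcn2, and the deletion reaches every lineage that the marrow rebuilds. The labels do not give the number of mice behind a library. All differences below are therefore between 2 libraries, no test of the genotype was possible, and the 95% intervals cover counting error alone.

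EGF-type ligands are made as membrane-bound precursors, are cut free by ADAM proteases and signal through the ErbB receptor tyrosine kinases. TGF-beta is secreted in a latent complex that has to be opened before it can bind its receptors and activate Smad proteins, and it is known in tumours for restraining T and NK cells. Inhba encodes the chain of activin A, which uses related receptors and is trapped by follistatin. Amphiregulin, the product of Areg, is known as a tissue repair factor of regulatory T cells.

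There were 7788 barcodes with 40959725 UMIs (unique molecular identifiers, each standing for 1 captured mRNA molecule) in the library labelled Lcn2-ko, and 7974 barcodes with 42069099 UMIs in wt. After filtering, 7240 cells labelled Lcn2-ko and 7398 wt cells remained, with a median of 3641 and 3664 UMIs per cell. The libraries shared 4 barcode sequences. Lcn2 itself, which encodes the iron-siderophore binding protein lipocalin 2, was counted in neutrophils of both libraries, with 82 UMIs in the library labelled Lcn2-ko against 198 in wt, or 162.5 against 207.9 CPM (UMIs per 1000000 UMIs of the class, the scale of every level below). Tags at the 3′ end can lie outside a deleted part, so these counts do not check the label.

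A set of 1687 cells labelled Lcn2-ko and 1864 wt cells had almost no mRNA of Ptprc, the gene for CD45, although the sort was for CD45+ cells. In the largest cluster of this Ptprc-low class, Ptprc was at 23.8 and 18.7 CPM, Sdc1 (syndecan 1) at 1402 and 1255, and the keratin gene Krt18 at 556 and 554, in the Lcn2-ko and wt libraries. Epcam, a common epithelial marker, was at or below 4.71 CPM in each of the 5 clusters of the class, and Krt7 was at 0 in the largest. That cluster also carried genes typical of fibroblasts, with Col1a1 at 7698 and 8172, Col3a1 at 857 and 904 and Dcn at 316 and 297 CPM, while other fibroblast genes were near 0, with Col1a2 at 0.876 and 0.292 and Lum at 0.146 and 0. MB49 cells are not blood cells and would fall in this class, but these markers do not settle their identity, so the cells are called Ptprc-low below. The class also held a small cluster of 26 and 18 cells led by Col1a2 with endothelial Cdh5. The other classes compared were neutrophils (385 and 615 cells), monocyte-macrophages (818 and 730), dendritic cells (587 and 784), T cells (2941 and 2638), NK cells (339 and 234), and cells with NK cell markers and Cd3e that were left unnamed (363 and 391).

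The 8 factors divided by source. Ptprc-low cells held most UMIs of 6 members, namely Ereg, Tgfb2, Hbegf, Tgfb3, Inhba and Nrg1, while T cells were the leading source of Areg and Tgfb1. Of all Ereg UMIs in kept cells, 96.4% lay in Ptprc-low cells of the library labelled Lcn2-ko and 95.8% in those of the wt library. The Ptprc-low share was 94.2% and 95.6% for Tgfb2, 91.5% and 91.0% for Hbegf, and 84.1% and 87.7% for Tgfb3. It was 74.3% and 79.6% for Inhba and 72.2% and 80.0% for Nrg1. The order of these shares depends on how many cells of each class were captured as well as on the level per cell, and Ptprc-low cells contributed 40.8% and 42.3% of all UMIs.

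**Figure D1:**
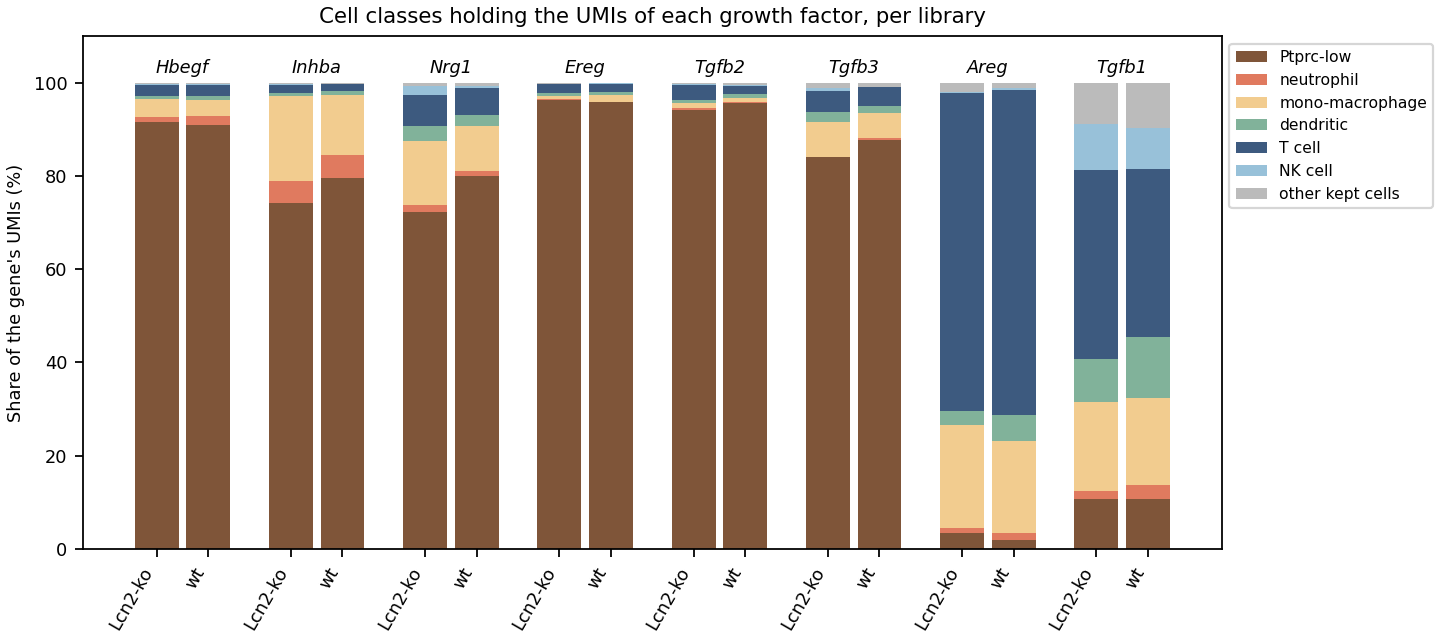
Share of each growth factor's UMIs (%) that lay in each cell class, as stacked bars, 1 bar for the library labelled Lcn2-ko and 1 for wt per gene. The Ptprc-low class fills 72.2% or more of each bar from Hbegf to Tgfb3, whereas T cells fill 68.1% and 69.8% of the Areg bars.

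Ereg and Areg, the genes of epiregulin and amphiregulin, are neighbours on mouse chromosome 5 and were found in different cells. On the mm10 build, Ereg occupies chr5:91074622-91093646 and Areg chr5:91139599-91148432, both on the plus strand, with 45952 bp and no annotated gene between them. Ptprc-low cells had 87.1 CPM of Ereg in the library labelled Lcn2-ko and 70.6 in wt, but only 4.24 and 2.27 of Areg. T cells had 141 and 171 CPM of Areg, but 2.79 and 2.57 of Ereg. The other genes placed here lie apart, with Nrg1 at chr8:31814551-32884029 (minus strand), Inhba at chr13:16011851-16031621 (plus), Tgfb1 at chr7:25687002-25705077 (plus), Tgfb2 at chr1:186622792-186705989 (minus) and Tgfb3 at chr12:86056745-86079041 (minus). Ereg, Inhba, Tgfb2 and Tgfb3 each overlap a gene of the matrices on the opposite strand, and whether counting used the strand is not given in the sources used here.

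Promoter sequences from RefSeq (build GRCm38.p6) were at hand for 4 members, 2 with immune cells and 2 with Ptprc-low cells as their main source, and are shown to set those gene starts side by side. Each is the 150 bases before the start of the gene, 5′ to 3′ on the gene's strand, with motif matches in capitals.
Areg, chr5:91139449-91139598, plus strand: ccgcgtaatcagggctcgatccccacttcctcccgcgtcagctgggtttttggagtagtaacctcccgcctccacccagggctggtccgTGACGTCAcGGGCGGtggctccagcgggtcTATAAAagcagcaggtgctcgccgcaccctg
Tgfb1, chr7:25686852-25687001, plus strand: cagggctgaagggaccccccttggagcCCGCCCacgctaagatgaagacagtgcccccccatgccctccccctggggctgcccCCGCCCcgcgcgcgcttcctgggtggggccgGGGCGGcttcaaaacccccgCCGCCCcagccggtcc
Inhba, chr13:16011701-16011850, plus strand: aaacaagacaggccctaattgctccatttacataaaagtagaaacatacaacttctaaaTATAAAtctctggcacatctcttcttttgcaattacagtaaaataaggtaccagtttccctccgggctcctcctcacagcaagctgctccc
Tgfb2, chr1:186705990-186706139, minus strand: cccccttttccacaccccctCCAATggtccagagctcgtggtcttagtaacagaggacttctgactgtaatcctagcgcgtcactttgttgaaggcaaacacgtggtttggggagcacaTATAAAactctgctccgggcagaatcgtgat

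The motifs searched on both strands were the TATA box (TATAAA), the cyclic AMP response element (TGACGTCA) and its shorter core (TGACGT, which lies within it), the AP-1 site (TGANTCA), the GC box (GGGCGG) and the CCAAT box (CCAAT). The Areg window held a TATA box at -31 to -26, a cyclic AMP response element at -61 to -54 and a GC box at -52 to -47, counted from the gene start. The full cyclic AMP element was present in 1.36% of 32851 mouse promoter windows of this length, and TATAAA in 7.57%. Tgfb1 had 4 GC boxes, a motif found in 28.6% of windows, no TATAAA, and a GC content of 76.0%. Tgfb2 had a TATA box at -31 to -26 and a CCAAT box at -130 to -126, and Inhba a TATA box farther off at -91 to -86. The GC content was 64.7% for Areg, 51.3% for Tgfb2 and 40.7% for Inhba, against a median of 54.0% over all windows. These matches describe letters and say nothing of which factor is bound.

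Hbegf encodes heparin-binding EGF-like growth factor, a ligand of the EGF receptor. Its level in Ptprc-low cells was 688 CPM in the library labelled Lcn2-ko and 690 in wt, a log2 ratio of -0.00 (-0.04 to 0.03). It was counted in 81.5% and 78.0% of these cells, whose median depth was 8531 and 8154 UMIs. After every cell was thinned to 800 UMIs, 36.4% and 33.6% still had an Hbegf UMI, against 0.594% and 1.72% of NK cells treated in the same way. Neutrophils came next, at 285 (241 to 336) and 254 (223 to 288) CPM, with an Hbegf UMI in 16.6% and 16.4% of cells at a median depth of 1219 and 1359 UMIs. Monocyte-macrophages followed at 72.7 and 72.1 and T cells at 30.1 and 39.0. The intervals of neighbouring classes in this order did not overlap from the Ptprc-low cells down to dendritic cells at 18.6 and 20.6, and those of dendritic cells, the unnamed class and NK cells did.

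**Figure D2:**
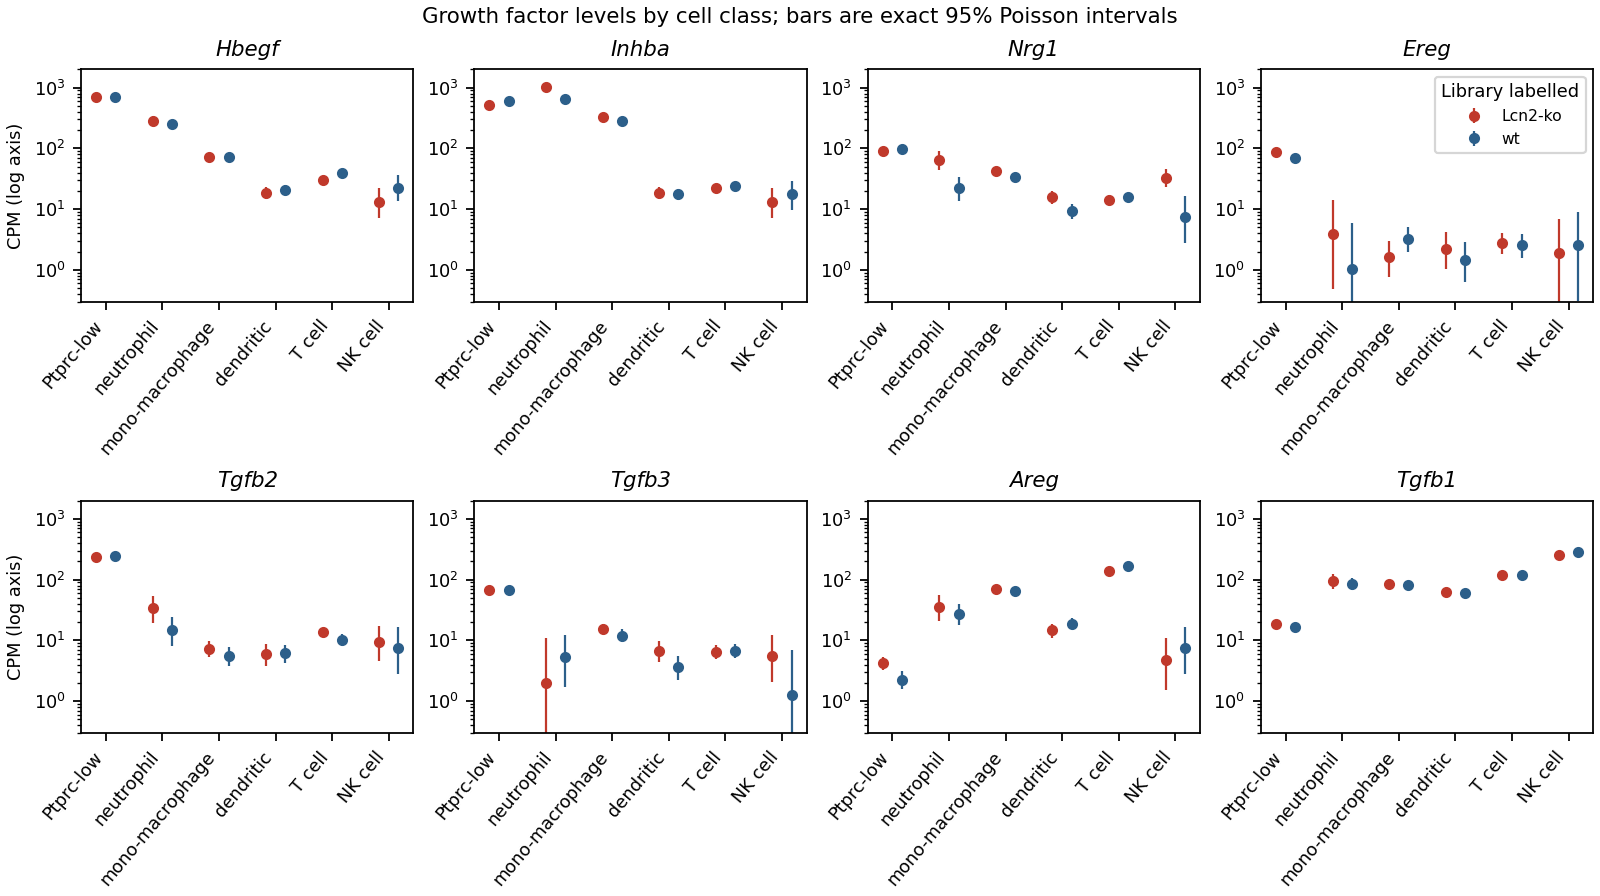
Level of each growth factor (CPM, log axis) in 6 cell classes, with red points for the library labelled Lcn2-ko left of blue points for wt. Bars are exact 95% Poisson intervals, and a bar that meets the lower frame reaches below 0.3 CPM. Hbegf, Nrg1, Ereg, Tgfb2 and Tgfb3 are at their highest in the Ptprc-low class in both libraries, Areg in T cells and Tgfb1 in NK cells. For Nrg1 the intervals of Ptprc-low cells and neutrophils overlap in the library labelled Lcn2-ko.

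Ereg was close to limited to Ptprc-low cells at this depth. Its UMIs were found in 26.3% of Ptprc-low cells labelled Lcn2-ko and 22.3% of wt ones. No other class compared exceeded 3.96 CPM, and neutrophils held 2 UMIs in the library labelled Lcn2-ko and 1 in wt. Nrg1 encodes neuregulin 1, a ligand of the ErbB3 and ErbB4 receptors, and stood at 88.9 and 99.1 CPM in Ptprc-low cells and at 42.9 and 34.2 in monocyte-macrophages. Neutrophils had 63.43 (43.39 to 89.55) and 22.05 (13.65 to 33.71). Their interval overlapped that of Ptprc-low cells, 84.32 to 93.68, in the library labelled Lcn2-ko. Thinned to 800 UMIs, 7.56% and 8.29% of Ptprc-low cells and 4.45% and 3.31% of monocyte-macrophages had an Nrg1 UMI. Ptprc-low cells and monocyte-macrophages were thus nearer to each other than for Ereg.

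Amphiregulin mRNA was concentrated in few cells. T cells held 1319 Areg UMIs in the library labelled Lcn2-ko and 1332 in wt, which is 68.1% and 69.8% of the gene's total. Monocyte-macrophages held 22.2% and 19.7%. The 12 T cell marker genes summed to 1227 and 1072 CPM in monocyte-macrophages, against 7550 and 7157 in T cells. How much of the Areg counted in monocyte-macrophages was T cell RNA was not tested. Only 15.6% and 17.6% of T cells had any Areg UMI, and 50% of the T cell UMIs came from 69 of 2941 and 63 of 2638 cells. The most loaded single T cell had 56 UMIs in the library labelled Lcn2-ko and 70 in wt. CD8 T cells and NK cells were nearly empty of it, with 7.60 and 7.89 CPM in the CD8 T cell cluster that expressed Gzmk, 13.5 and 9.40 in the one with Gzmf, 10.8 and 9.79 in the dividing one, and 4.69 and 7.55 in NK cells.

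T cells with a UMI of Foxp3, the defining transcription factor of regulatory T cells, carried more Areg than the other T cells in both libraries. The level was 259 and 277 CPM with Foxp3 and 71.2 and 92.8 without it, a 3.64-fold difference in the library labelled Lcn2-ko and 2.98-fold in wt. Areg was found in 30.1% and 30.3% of T cells with Foxp3, and in 7.09% and 8.89% of those without, at similar median depths (2618 and 2535 UMIs with, 2730 and 2513 without). Thinning to 800 UMIs left the same order, with 13.6% and 15.8% against 3.49% and 4.49%. Tgfb1 showed no such split, at 117 and 110 CPM in T cells with Foxp3 and 123 and 129 without. A single Foxp3 UMI is an incomplete mark of a regulatory T cell, since cells of this depth can miss the message.

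Among clusters of at least 50 cells in each library, Areg was highest in T cells led by Foxp3 and Klrg1. It was at 314 CPM there in the library labelled Lcn2-ko and 331 in wt. A further Foxp3 cluster, led by Myb, had 131 and 229. That difference rested largely on 1 wt cell with 70 UMIs: without the most loaded cell of each library the log2 ratio was -0.33 in place of -0.81. T cells that expressed Tnfsf11 and Il13 had 204 and 150, and those with Il17a had 156 and 147. Areg was therefore not limited to Foxp3 cells. Macrophages with C1qc had 69.8 and 64.1 and monocytes with Chil3 had 67.9 and 71.0. The basophil cluster, of 56 cells over both libraries, was too small for the ranking of clusters. In it, 1 cell labelled Lcn2-ko accounted for 17 of 18 Areg UMIs, and 1 wt cell for all 14.

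**Figure D3:**
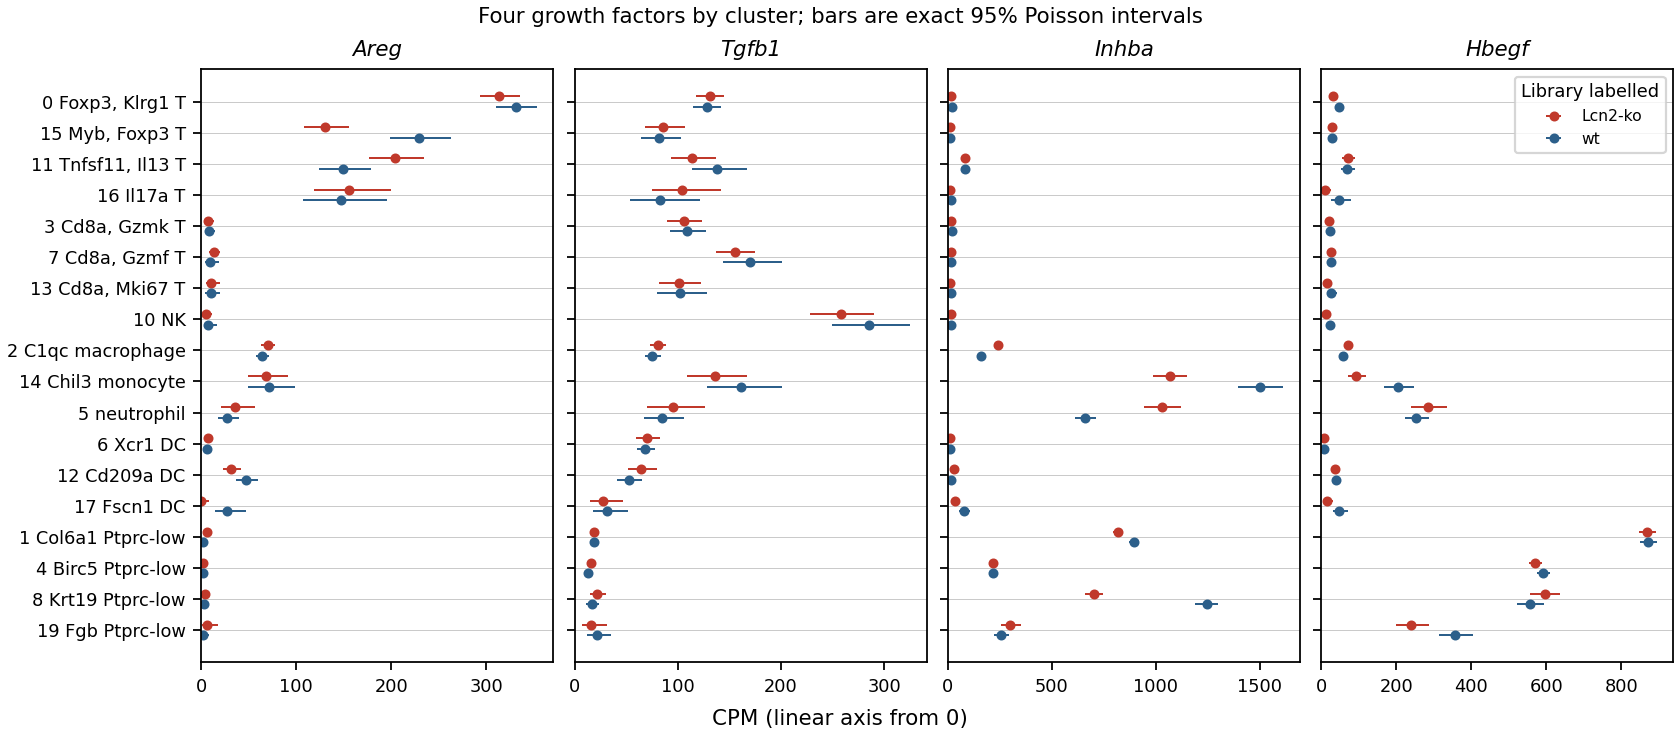
Levels of Areg, Tgfb1, Inhba and Hbegf (CPM, linear axis) in clusters named by number and leading genes. Red points are the library labelled Lcn2-ko, drawn above blue points for wt, and bars are exact 95% Poisson intervals. Among the clusters shown, Areg peaks in the Foxp3 and Klrg1 T cells at 314 and 331. Tgfb1 peaks in NK cells at 258 and 286, Inhba in Chil3 monocytes at 1067 and 1503, and Hbegf in the Ptprc-low clusters.

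Inhba was shared by Ptprc-low and myeloid cells. Of the 7 classes it was highest in neutrophils, with 1031 CPM (944 to 1123) in the library labelled Lcn2-ko and 661 (610 to 714) in wt. Ptprc-low cells had 524 (513 to 535) and 599 (588 to 611), which lay below the neutrophil interval in the library labelled Lcn2-ko and overlapped it in wt. Inhba stood at 327 and 278 in monocyte-macrophages, whereas T, dendritic and NK cells were at or below 24.4. Neutrophils were few and shallow, so they held only 4.66% and 4.98% of all Inhba UMIs. Within the monocyte-macrophage class, monocytes with Chil3 had 1067 and 1503 CPM, and macrophages with C1qc had 240 and 161. Monocytes thus matched or exceeded the neutrophils, and macrophages lay below both. Inhba was uneven from cell to cell, as 50% of its neutrophil UMIs came from 14 of 385 cells labelled Lcn2-ko and 28 of 615 wt cells.

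The 3 TGF-beta isoforms had opposite sources. Tgfb1, the isoform made by most blood cells, was at 258 (229 to 291) and 286 (250 to 325) CPM in NK cells, found in 49.3% and 53.4% of them. The unnamed class with NK cell markers and Cd3e followed at 147 and 141, then T cells at 121 and 121, neutrophils at 95.2 and 85.1, monocyte-macrophages at 86.3 and 83.1 and dendritic cells at 63.6 and 61.1. Ptprc-low cells had the lowest level of the 7 classes, 18.7 and 16.5. Neighbours in that order from the unnamed class to monocyte-macrophages overlapped in at least 1 library, while NK cells stood above the rest, dendritic cells below monocyte-macrophages, and Ptprc-low cells below all others. T cells nevertheless held the largest part of Tgfb1, 40.6% and 36.2% of its UMIs, since they were the most numerous class.

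Tgfb2 and Tgfb3 were counted mostly in Ptprc-low cells. Tgfb2 was at 240 and 245 CPM in Ptprc-low cells, found in 56.5% and 58.0% of cells, against 13.7 and 10.3 in T cells and 7.29 and 5.50 in monocyte-macrophages. Tgfb3 was at 68.7 and 68.2 in Ptprc-low cells, found in 37.7% and 35.6%, and at 15.5 and 12.0 in monocyte-macrophages. Both were spread more evenly than Inhba, with 50% of Tgfb2 UMIs in 156 and 188 Ptprc-low cells and 50% of Tgfb3 UMIs in 177 and 179.

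Immune cells in such data hold some free RNA of other cells, and 10 keratin, collagen and other structural genes of the Ptprc-low class give its scale. In neutrophils these genes stood at 1.73% to 7.22% of their Ptprc-low level in the library labelled Lcn2-ko (median 3.85%) and at 1.62% to 8.84% in wt (median 2.73%). In T cells the range was 1.13% to 7.78% and 1.20% to 6.76%, with medians of 2.05% and 1.69%. Its upper end was Tpm1. Next came Krt8 at 3.32% in the library labelled Lcn2-ko and Col4a2 at 3.78% in wt. Ereg in neutrophils (4.55% and 1.49%) and in T cells (3.20% and 3.64%) lay within or below these ranges. Such a position cannot tell free RNA from low expression. Hbegf in T cells (4.38% and 5.66%) lay below Tpm1 but above the other structural genes, and whether it was background was not tested. Tgfb2 in neutrophils was at 14.1% of the Ptprc-low level in the library labelled Lcn2-ko, above the range, and at 6.01% in wt, within it. Hbegf in neutrophils (41.5% and 36.9%) and Nrg1 in monocyte-macrophages (48.3% and 34.5%) were well above.

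The Ptprc-low class was not uniform. A cluster with Col6a1 and Dcn, the largest, had 362 and 362 CPM of Tgfb2 and 870 and 872 of Hbegf. A dividing cluster with Birc5 had 156 and 171 of Tgfb2 and 572 and 592 of Hbegf. A shallower cluster with Krt19 and Hmga2 had the lowest Tgfb2 of these 3 clusters, 93.5 and 125, and the highest Ereg, 165 and 143, against 108 and 86.5 in the Col6a1 cluster and 50.9 and 40.5 in the dividing one. Ereg and Tgfb2, though both mainly from Ptprc-low cells, were thus highest in different clusters. Of the 6 members of mainly Ptprc-low source, at least 3 were counted together in 72.9% and 72.8% of Col6a1 cells and in 34.7% and 30.4% of Krt19 cells, whose median depths were 7690 and 7280 against 3080 and 1940 UMIs. At 800 UMIs per cell these shares were 9.73% and 7.89% in the Col6a1 cluster, against 4.12% and 4.53% in the Krt19 cluster.

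Over 19 clusters of at least 50 cells in each library, the level of each factor was compared with that of 6495 other genes by Pearson correlation of log2(CPM + 10), averaged over both libraries. Clusters share libraries and differ in depth, so the coefficients are descriptive. Ereg was most like Tnnt2 (r = 0.992), Pcdh1 and Grem1, and Tgfb2 most like Pxdn (0.983) and Ltbp1 (0.980), which encodes a binding protein of latent TGF-beta. Areg was most like Il1rl1 (0.892), which encodes the receptor of interleukin 33, followed by Cpm and Hif1a. Inhba was most like Thbs1 (0.967), Slc23a2 and Cstb. Tgfb1 was most like the leukocyte genes Itgal (0.942) and Ptprc (0.929), then Zfp326. Hbegf was nearest to Fam20c (0.958), Nrg1 to Zfp703 (0.930) and Tgfb3 to Orm3 (0.928). Between members, Ereg and Tgfb2 had r = 0.911 and Hbegf and Inhba 0.888, whereas Ereg and Tgfb1 had -0.776 and Ereg and Areg -0.395.

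The library labelled Lcn2-ko was then set against wt within each class. A member counted as measured from 10 UMIs in total and 20 CPM in at least 1 library, and as different where the levels differed at least 1.5-fold. In Ptprc-low cells 6 of 8 members were measured and 0 differed, beside 1.08% of all 6739 genes measured there. Monocyte-macrophages had 0 of 5 measured members (2.17% of all genes), dendritic cells 0 of 2 (3.15%), T cells 0 of 4 (1.11%) and the unnamed class 0 of 1 (7.87%). In neutrophils 3 of 6 measured members were higher in the library labelled Lcn2-ko, where 12.0% of all genes were, and 0 were lower, where 9.38% were. In NK cells Nrg1 was higher and Hbegf lower, of 3 measured members, where 5.24% of all genes were higher and 6.68% lower. The Hbegf level in NK cells, 1.91% and 3.29% of that in Ptprc-low cells, lay within the range of the structural genes there (1.11% to 9.99% and 0.792% to 4.89%). Whether it was background was not tested. The 2 classes with members past 1.5-fold were those with the fewest UMIs, 504479 and 952341 in neutrophils and 1065205 and 794589 in NK cells, and with the largest shares of all genes past that limit.

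**Figure D4:**
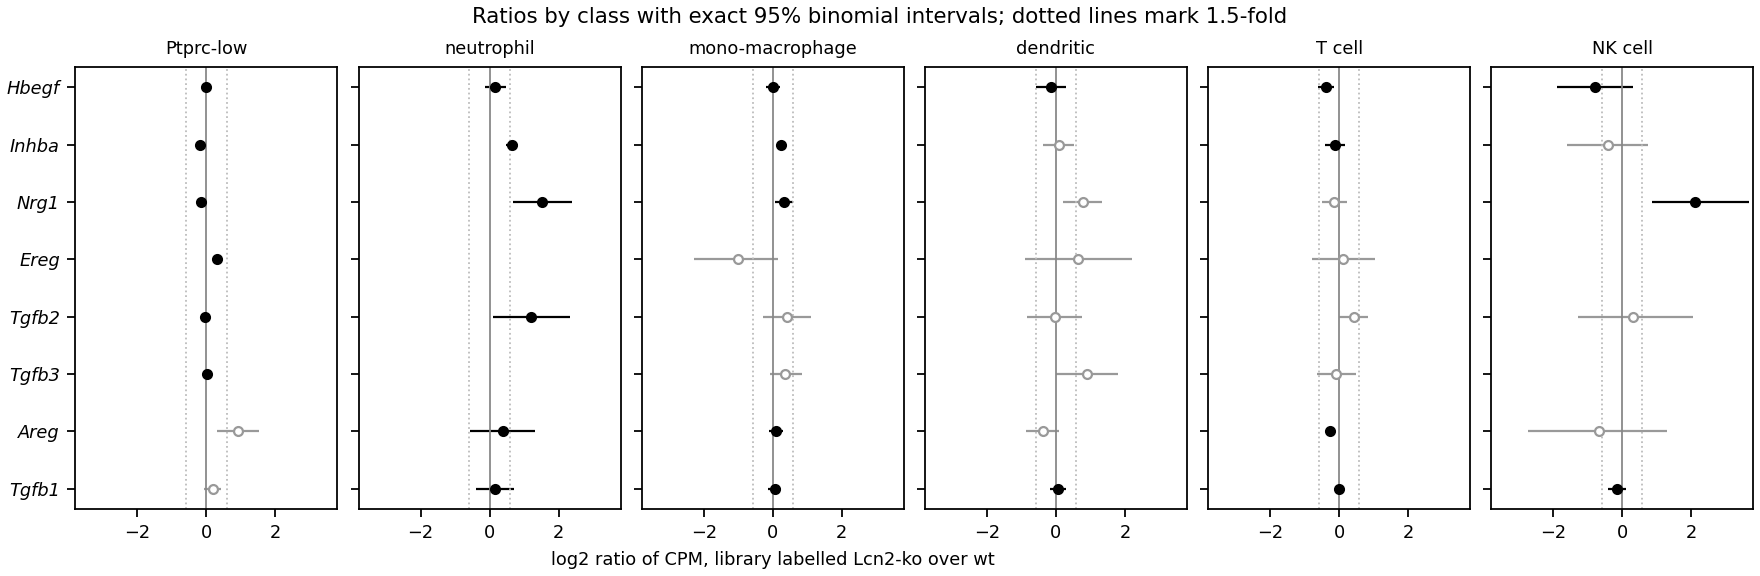
Log2 ratio of the level in the library labelled Lcn2-ko over wt for each growth factor in 6 classes, with exact 95% binomial intervals that cover counting error only. Filled points are measured members, open grey points had enough UMIs for a ratio but stayed below 20 CPM, and dotted lines mark 1.5-fold. Filled points past the lines are Nrg1, Inhba and Tgfb2 in neutrophils and Nrg1 and Hbegf in NK cells.

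Among Ptprc-low cells the ratios were small and narrow. The log2 ratio was 0.30 (0.19 to 0.42) for Ereg, -0.19 (-0.24 to -0.15) for Inhba and -0.16 (-0.26 to -0.05) for Nrg1, and within 0.03 of 0 for Hbegf, Tgfb2 and Tgfb3. Each of the 4 larger Ptprc-low clusters had the higher Ereg level in the library labelled Lcn2-ko. These clusters are parts of the same libraries and are not replicates. The median over the 6 measured members was -0.02, beside -0.03 over all genes. In the Krt19 cluster Inhba was at 704 CPM in the library labelled Lcn2-ko against 1245 in wt, a log2 ratio of -0.82 (-0.93 to -0.71), where 8.37% of all genes differed at least 1.5-fold. In that cluster it was found in 46.7% and 42.8% of cells, and the most loaded cells held 154 and 140 UMIs. Genes that mark the cluster also differed, with Krt19 at 82.7 and 164 CPM, Krt14 at 62.5 and 95.4 and Col3a1 at 130.5 and 215, and their part in the Inhba ratio was not tested.

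Areg in T cells was at 141 CPM (134 to 149) in the library labelled Lcn2-ko against 171 (162 to 180) in wt, a log2 ratio of -0.27 (-0.39 to -0.16). The T cell clusters made up different shares of the class in the libraries. With the same cluster weights in both libraries, an alternative chosen after seeing the data, the log2 ratio was -0.09. Areg differed by -0.10 (-0.23 to 0.04) in T cells with Foxp3 and by -0.38 (-0.58 to -0.18) in those without. Hbegf in T cells had a ratio of -0.37 (-0.61 to -0.13), at a share of the Ptprc-low level that only Tpm1 of the structural genes exceeded. The interval of the Tgfb1 ratio included 0 in each of the 7 classes compared, with log2 ratios of 0.00 (-0.13 to 0.13) in T cells and -0.15 (-0.41 to 0.11) in NK cells.

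Within the monocyte-macrophage class Inhba differed in opposite directions by cluster. In C1qc macrophages it was at 240 CPM in the library labelled Lcn2-ko against 161 in wt, a log2 ratio of 0.58 (0.46 to 0.71), just short of 1.5-fold. In Chil3 monocytes it was at 1067 against 1503, a ratio of -0.49 (-0.64 to -0.34). Hbegf in these monocytes was at 92.6 against 205, a ratio of -1.15 (-1.63 to -0.68) from 60 and 104 UMIs, where 23.2% of all genes differed at least 1.5-fold. Over the whole class the Inhba ratio was 0.24 (0.14 to 0.33).

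Of the ratios past 1.5-fold in whole classes, that of Inhba in neutrophils had the most UMIs. It was at 1031 CPM in the library labelled Lcn2-ko (520 UMIs) against 661 in wt (629 UMIs), a log2 ratio of 0.64 (0.47 to 0.81). The share of neutrophils with an Inhba UMI was similar, 29.9% and 27.8%, and without the most loaded cell of each library the log2 ratio was 0.59. The result depended on which cells were called neutrophils. With at least 500 genes required per cell and the cells clustered anew, 312 of the 320 Chil3 monocytes were named neutrophils and the log2 ratio was 0.07. A cluster of 324 cells led by Chil3, apart from the one led by S100a8, then took the neutrophil name. It had 41.67% of the neutrophil markers and the same share of the monocyte-macrophage markers, so the name rested on a tie. With the same gene limit but the classes kept as they were, an alternative chosen after seeing the data, 247 of 385 and 431 of 615 neutrophils remained and the ratio was 0.71. With the members allowed among the clustering genes, 171 of the 320 Chil3 monocytes were named neutrophils and the ratio was 0.27. A Chil3 cluster of 172 cells had the same tie there. These monocytes had the opposite difference, as given above.

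Neutrophils were divided again into 6 states. Inhba was highest in state 0 (leading genes P2rx7 and Gpnmb), at 1872 and 1408 CPM, in 46.4% and 37.4% of its cells. State 2 (Fpr1 and Cxcl3) had 1232 and 492, and state 4, led by interferon-induced genes such as Ifit1 and Rsad2, had 1160 and 254. The order was the other way in state 1 (Hp and Lrg1), with 100.5 and 304, and in state 3 (Icam1 and Nr4a2), with 411 and 538. In state 2, 1 cell labelled Lcn2-ko accounted for 50 of 99 Inhba UMIs, and the log2 ratio of 1.33 was 0.60 without the most loaded cells. Given the same state weights in both libraries, the neutrophil ratio was 0.57, beside 0.64 with the states as found. The part of the mix of states in that ratio was not tested. Hbegf peaked instead in state 3, at 630 and 820 CPM in 33.9% and 32.8% of cells, against at most 311 in the other states. State 5 contained T cell transcripts such as Cd3g beside neutrophil granule genes.

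**Figure D5:**
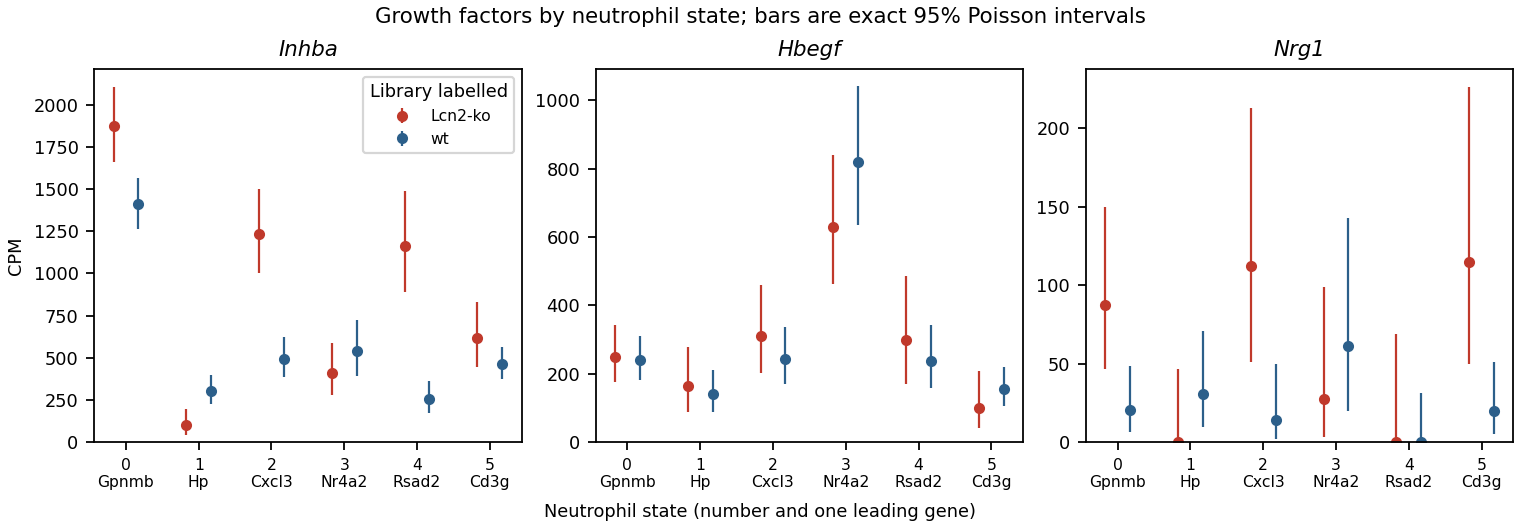
Levels of Inhba, Hbegf and Nrg1 (CPM, linear axes that differ between panels) in 6 neutrophil states named by number and a leading gene, with red points for the library labelled Lcn2-ko left of blue points for wt and exact 95% Poisson intervals. Inhba is highest in state 0, at 1872 and 1408, and Hbegf in state 3, at 630 and 820.

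Nrg1 and Tgfb2 in neutrophils rested on few cells. Nrg1 had 32 UMIs in 11 cells labelled Lcn2-ko against 21 UMIs in 12 wt cells, or 63.4 against 22.1 CPM, a log2 ratio of 1.52 (0.69 to 2.39). Tgfb2 had 17 UMIs in 10 cells against 14 UMIs in 10 cells, 33.7 against 14.7 CPM, a ratio of 1.20 (0.09 to 2.33). With at least 500 genes per cell and a new clustering both were short of 1.5-fold, at 0.42 for Nrg1 and 0.26 for Tgfb2, and with the classes kept they were 0.95 and 0.78. Of the 10 structural genes that give the background, 7 were higher and 3 lower in neutrophils labelled Lcn2-ko, with log2 ratios from -0.52 for Sdc1 to 1.05 for Sparc and a median of 0.13 over the 9 with enough UMIs. Their part in these ratios was not tested. In NK cells, Nrg1 had 35 UMIs in 14 cells against 6 UMIs in 6 cells, with 13 of the 35 in 1 cell, for a log2 ratio of 2.12 (0.86 to 3.66), or 1.72 without the most loaded cells. Hbegf in NK cells had 14 against 18 UMIs, and its interval of -1.91 to 0.30 included no difference.

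Of the 4 ErbB receptors for the EGF-type ligands, only Egfr reached 20 CPM, in the Ptprc-low cells. Egfr, the receptor of amphiregulin, epiregulin and heparin-binding EGF-like growth factor, was at 62.1 and 67.4 CPM in Ptprc-low cells and at or below 6.3 in every other class compared. Erbb2, a co-receptor, was at 16.4 and 17.5 there. Erbb3 and Erbb4, the neuregulin receptors, were near 0, with at most 0.537 CPM in Ptprc-low cells, and at most 4.62 for Erbb3 and 0.939 for Erbb4 in any class compared. None of the other 7 EGF-type ligands reached 20 CPM outside Ptprc-low cells, where Tgfa was at 18.6 and 21.5 and Btc at 9.93 and 10.4. Of the shedding proteases, Adam17, which releases amphiregulin and heparin-binding EGF-like growth factor, was at 259 and 261 in Ptprc-low cells, and Adam8 at 1225 and 1208 in neutrophils. Of the 9 protease genes and cofactors, 0 of 7 measured in Ptprc-low cells and 0 of 6 in neutrophils differed 1.5-fold. The shares of all genes that did were 1.08% and 21.4%, and these counts are too small to tell the list from them. The only gene of the list past that limit in any class compared was Adam19, 1 of 5 measured in the unnamed class. Its level there was reduced in Lcn2-ko cells, as for 4.18% of all genes.

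Follistatin (Fst) and its relative Fstl3, which trap activin, were counted mainly in Ptprc-low cells, at 132 and 141 and at 44.5 and 49.9 CPM. Neutrophils and monocyte-macrophages, which also carried Inhba, had at most 6.30 of Fst. Of the 8 other activin chains and antagonists, 1 of 3 measured in Ptprc-low cells differed, Fstl1, at 22.2 CPM in cells labelled Lcn2-ko against 10.2 in wt, where 0.490% of all genes were higher. In the unnamed class the only 1 measured, Bambi, was at 14.3 in cells labelled Lcn2-ko against 28.1 in wt, where 4.18% of all genes were lower. Tgfbr2, the ligand-binding TGF-beta receptor, was at 366 and 374 in NK cells, 282 and 242 in T cells and 187 and 202 in Ptprc-low cells. Tgfbr1, the signalling partner, was higher in neutrophils labelled Lcn2-ko, at 105 against 63.0 CPM from 53 and 60 UMIs. It was 1 of 2 receptors measured there, beside 12.0% of all genes higher. Acvr1 in dendritic cells (13.9 against 22.9 CPM) and Acvr2a in NK cells (18.8 against 36.5) were 1 of 4 and 1 of 3 receptors measured. Of all genes, 1.67% in dendritic cells and 6.68% in NK cells were lower in the library labelled Lcn2-ko.

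Genes that hold or open latent TGF-beta differed by cell type. Ltbp1 and Ltbp3, which tether the latent complex to matrix, were at 154 and 128 and at 275 and 272 CPM in Ptprc-low cells. Lrrc32, whose product presents latent TGF-beta on regulatory T cells, was at 41.3 and 44.6 in T cells, and Nrros, which does so on myeloid cells, at 158 and 150 in monocyte-macrophages. These 4 genes were chosen after their values were seen. Thbs1 (thrombospondin 1, which can release TGF-beta) was at 5360 and 4495 in neutrophils. In monocyte-macrophages it was at 2123 in the library labelled Lcn2-ko against 1382 in wt, and it was 1 of 8 measured latency genes past 1.5-fold there, where 0.623% of all genes were higher. In Ptprc-low cells 0 of 10 differed.

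Genes known to respond to these ligands had their lowest median log2 ratios in T cells. The median there was -0.22 over 9 measured TGF-beta response genes, beside -0.03 over all genes. Over 11 EGF receptor and MAP kinase feedback genes it was -0.20. Of these, 0 passed 1.5-fold, beside 1.11% of all genes. The highest medians were 0.16 for response genes, in NK cells, and 0.11 for feedback genes, in neutrophils. In neutrophils 3 of 13 response genes were higher in the library labelled Lcn2-ko and 2 lower, beside 12.0% and 9.38% of all genes. Of 15 TGF-beta response genes, 10 were measured in Ptprc-low cells, with 0 higher and 2 lower in the library labelled Lcn2-ko, where 0.594% of all genes were lower. Those were Id1, at 28.7 against 46.7 CPM, and Id3, at 52.4 against 83.9, both better known as targets of bone morphogenetic protein signalling. Smad7, the feedback inhibitor of TGF-beta signalling, was at 606 and 599 in NK cells and 447 and 509 in T cells, and 0 of the Smad signalling genes differed in any of the 6 named classes. Of 15 EGF receptor and MAP kinase feedback genes, 0 of 11 measured differed in Ptprc-low cells. Egr1, an immediate early gene, was at 449 CPM in monocyte-macrophages labelled Lcn2-ko against 706 in wt, and at 189 against 364 in dendritic cells. Of 9 feedback genes measured in monocyte-macrophages 1 had a lower level in cells labelled Lcn2-ko, Egr1, beside 1.55% of all genes. Of 9 measured in dendritic cells 2 did, Egr1 and Phlda1, beside 1.67% of all genes.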

How the data were processed

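The authors deposited matrices of raw counts, whole-number UMIs per gene and cell barcode, from 2 BD Rhapsody whole-transcriptome libraries per the labels' protocols. Cell Ranger and mm10 are named in the submitters' processing notes, without version or role. The members and gene lists were chosen with earlier results of these data known.

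Cells with under 200 genes or over 20% mitochondrial UMIs were left out (46 and 241 labelled Lcn2-ko, 82 and 262 wt). Scrublet in scanpy 1.11.5 (expected rate 0.06) called 1 doublet per library, and 312 and 319 cells, those in the top 4% of scores, were dropped in its place. Both libraries were clustered together with leidenalg 0.10.2 (2000 variable genes without the members and pathway lists, 30 principal components, 15 neighbours, resolution 1, no batch correction). A cluster took the class of which most markers exceeded the level in the remaining cells by 2-fold. A mean Ptprc below 100 CPM set a cluster apart as Ptprc-low, and Cd3e of 500 or more left a cluster with NK cell markers unnamed. Neutrophils were clustered again at resolution 0.6.

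Levels are UMI sums of a class per 1000000 UMIs of that class (CPM), with exact Poisson intervals. Shares have exact Clopper-Pearson intervals and ratios exact conditional binomial ones (scipy 1.17.1). These cover counting error only. With 1 library per label no test was made. The code for ratios was tested on simulated data. Alternatives changed the doublet, mitochondrial and gene limits, resolution, centring, clustering genes, scaling, thinning to 800 UMIs, the most loaded cell and the calling limits. Other genes named were the 4 ErbB receptors, the 2 most abundant of each pathway list, and those with the largest ratios. Up to 3 genes most like each member in level over clusters were also named. Some results that this rule covers are not reported here. Gene positions are from GENCODE vM21 on mm10. RefSeq promoters (GRCm38.p6) matched 4 of 8 members, and proteins were not used here.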

Additional observations from a re-analysis of the deposited data

Results flagged for a closer look

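These values were listed because a member was at least 1.5-fold higher in 1 cluster and at least 1.5-fold lower in another, in the library labelled Lcn2-ko. With 1 library per label the difference between clusters was not tested in any of them.

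Nrg1 had a log2 ratio, library labelled Lcn2-ko over wt, of 1.52 in neutrophils (cluster 5) and 2.12 in NK cells (cluster 10), against -1.10 in Il17a T cells (cluster 16), where it rested on 7 and 12 UMIs. Inhba had a log2 ratio of 0.64 in neutrophils and 1.08 in Cd209a dendritic cells (cluster 12, 39 and 20 UMIs), against -0.82 in the Krt19 Ptprc-low cluster (cluster 8). Tgfb2 had a log2 ratio of 1.20 in neutrophils against -1.03 in Tnfsf11 T cells (cluster 11, 11 and 18 UMIs). Of all genes measured, the share past 1.5-fold in either direction was 21.4% in cluster 5, 11.9% in cluster 10 and 28.3% in cluster 16. It was 10.1% in cluster 12, 8.37% in cluster 8 and 14.5% in cluster 11.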

How the results depend on the processing

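Each result was recomputed under 17 alternative settings, giving 705 comparisons with the values above. Of 66 on ratios past 1.5-fold, 60 stayed within the counting interval of the reported value, 6 left it, 1 of them with its sign turned, and 8 were short of 1.5-fold. Of 531 on other ratios, 511 stayed within that interval, which is wide where UMIs are few, and 46 turned their sign, 38 of them within it. Of 108 on counts of members, 96 stayed within 1.5 times the reported count. With at least 500 genes per cell and a new clustering, the log2 ratios in neutrophils were 0.42 for Nrg1, 0.26 for Tgfb2 and 0.07 for Inhba, those in the class called NK cells were 0.85 for Nrg1 and 0.40 for Hbegf, which reversed, and the members past 1.5-fold numbered 0 in neutrophils and 1 in monocyte-macrophages. With members among the clustering genes, the neutrophil ratios were 0.67 for Nrg1, 0.53 for Tgfb2 and 0.27 for Inhba. Under both clusterings a separate Chil3 cluster with equal shares of neutrophil and monocyte-macrophage markers took the neutrophil name. With 500 genes a cluster of 100 cells led by Col1a2 and Cdh5 joined the NK class. With 500 genes and the classes kept, the neutrophil ratios were 0.95 for Nrg1, 0.78 for Tgfb2 and 0.71 for Inhba, and the NK ratios 2.12 for Nrg1 and -0.79 for Hbegf. With thinning the neutrophil ratio of Inhba was 0.56. The cause of the shifts was not tested otherwise. Members past 1.5-fold in dendritic cells numbered 1 with the highest 8% of doublet scores left out, 1 with the mean over cells, 2 with thinning and 3 with no limit on the level. In NK cells they numbered 1 at resolution 0.5, 0 with thinning, 0 with a limit of 50 CPM and 1 at 2-fold. With no limit on the level they also numbered 1 in Ptprc-low cells and 1 in monocyte-macrophages. Under every setting 5 members had their highest level in Ptprc-low cells. No paired analysis was possible because each label had 1 library. Ratios in neutrophils and NK cells are limited by depth, as all but Inhba, Hbegf and Tgfb1 had at most 35 UMIs per library there.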
